A study of Mus musculus with 11 samples.

Results

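The transcriptional coactivator YAP, its DNA-binding partner TEAD1 and 8 genes known as targets or regulators of the pair were followed in mouse JB6 cells: Ccn1, Ccn2, Ankrd1, Amotl2, Ajuba, Lats2, Axl, Crim1, Yap1 and Tead1. Probe sets were taken where the array annotation gives exactly one of these symbols, which found 20 probe sets out of 22626 without the controls; all 10 genes were found, among 12393 that have such a probe set. Each gene was read from the probe set that was brightest over all 11 arrays, and the other probe sets are given beside it. JB6 is a line of mouse epidermal cells that serves as a model of tumor promotion, in which attached cells gain the ability to grow in agar. The study set out to compare a reversible and an irreversible form of that growth. The reversible form was clone 41-5A, the parental JB6 cells, given 10 ng/ml basic fibroblast growth factor (bFGF) in soft agar. The irreversible form was RT101, a tumor variant of JB6 that received no treatment. Colonies of both were taken from the agar on day 7, and each was set against cells grown as an attached monolayer: the bFGF-JB6 cells gave 3 arrays of each growth state, and RT101 gave 2 monolayer and 3 colony arrays. The monolayers of clone 41-5A are also labelled as bFGF-treated, with no dose or time given. All groups rest on 1 clone or line each, so between the lines the cells and the growth factor cannot be told apart.

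YAP carries signals of attachment, cell spreading and tension to the nucleus. In cells that are spread and under tension it enters the nucleus, binds TEAD factors on DNA and switches on genes such as Ccn1, Ccn2 and Ankrd1. When cells round up, crowd or lose their attachment, the Hippo kinases LATS1 and LATS2 phosphorylate YAP, which is then held in the cytoplasm or degraded. Several targets, among them Lats2, Amotl2 and Ajuba, encode proteins that act back on the pathway. The control of YAP is largely one of protein location and phosphorylation, which arrays of messenger RNA do not measure.

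TEAD factors bind the core letters GGAATG, read on either strand (CATTCC on the other). The 10 short sequences that follow show each place where these 6 letters stand in the members' promoters, in capitals, with 9 bases on each side, from RefSeq promoters of build GRCm38.p6 that span 250 bases before to 50 after a gene's start. An entry was found for 8 members, at 9 start sites; Ccn2 and Tead1 are named only. The sequences are shown because the core occurred at 1 or more start sites of all 8 of these members. Counted by single windows, 14.7% of all 32851 promoter windows of the same 300 bases held it. The members were picked as genes of this pathway, so these shares are no independent test.
Ccn1: gccaaccaaCATTCCtgagatgtt
Ankrd1: actgccaaaGGAATGaccctctca
Ankrd1: actaagtctGGAATGaaaattcac
Amotl2: aaactctcaCATTCCtggcatagc
Ajuba: tgatggataCATTCCacagtgccc
Ajuba: ccctccgcgCATTCCaactgtaaa
Lats2: gacgcccgtGGAATGccaacaatg
Axl: aattctacaGGAATGtttaccaga
Crim1: gcgggggggGGAATGaggtaggat
Yap1: gagtctgcaGGAATGtagcgacgc
Ankrd1 and Ajuba each held 2 copies, and 1.36% of all windows held 2 or more. The copies stood at -210 and -123 in Ankrd1 and at -186 and -164 in Ajuba, counted from the start site. Single copies began at -103 in Ccn1, -65 in Amotl2, -79 in Crim1, -141 in Yap1 and -233 in Axl. In Lats2 the core lay just inside the transcript, at 5 bases from the upstream start, and the other annotated Lats2 start had none. The letters TGANTCA of an AP-1 site (7.81% of windows) and a CArG box, the site of serum response factor (1.63%), were searched on both strands and found in none of the members' windows. TATAAA was found in Ccn1 alone among them, from -25 to -20, and in 13.6% of all windows. A match is a string of letters and says nothing of whether a factor was bound in these cells.

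**Figure D1:**
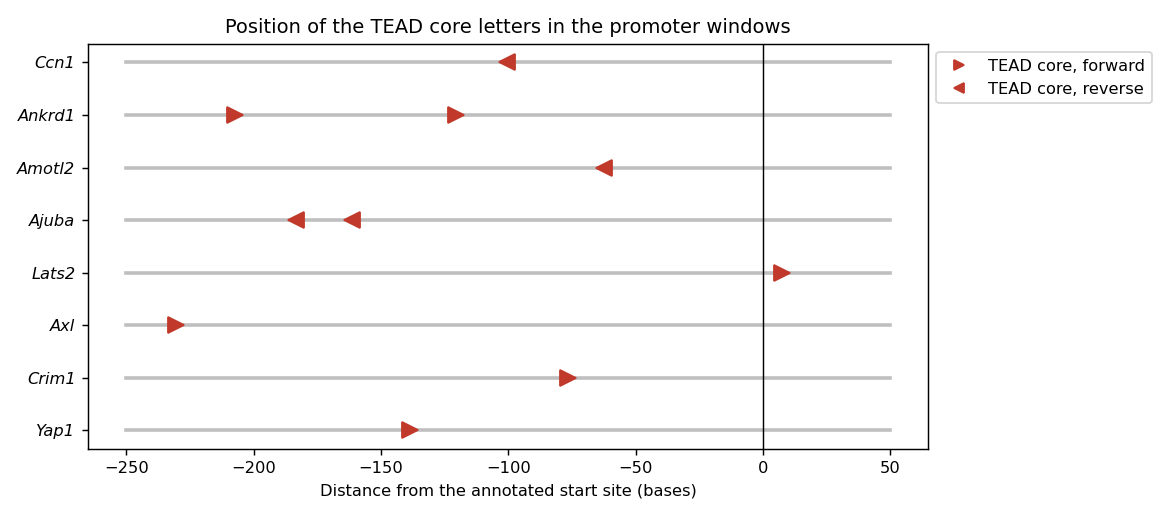
Positions of the TEAD core GGAATG or CATTCC in the promoter windows of 8 members, 1 line per gene, with distance from the annotated start in bases on the x axis and arrows for the strand of the match. Ankrd1 and Ajuba carry 2 copies each, and the other 6 members carry 1.

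The upstream 250 bases are given in full for the 4 members whose fall in RT101 colonies was largest, with the TEAD core in capitals and each written in the direction of its gene. Ccn1 lies on the minus strand at chr3:145649986-145650235, Ankrd1 on the minus strand at chr19:36119845-36120094, Amotl2 on the plus strand at chr9:102717554-102717803 and Ajuba on the minus strand at chr14:54577662-54577911.
Ccn1: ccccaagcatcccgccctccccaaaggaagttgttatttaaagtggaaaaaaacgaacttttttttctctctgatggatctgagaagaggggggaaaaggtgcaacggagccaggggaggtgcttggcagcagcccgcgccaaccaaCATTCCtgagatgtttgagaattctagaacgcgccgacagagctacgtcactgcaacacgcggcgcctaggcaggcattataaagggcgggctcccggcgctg
Ankrd1: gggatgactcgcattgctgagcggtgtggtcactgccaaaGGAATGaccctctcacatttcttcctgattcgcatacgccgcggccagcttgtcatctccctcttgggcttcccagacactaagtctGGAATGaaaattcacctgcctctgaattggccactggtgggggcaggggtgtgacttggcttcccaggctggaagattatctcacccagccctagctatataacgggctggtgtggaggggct
Amotl2: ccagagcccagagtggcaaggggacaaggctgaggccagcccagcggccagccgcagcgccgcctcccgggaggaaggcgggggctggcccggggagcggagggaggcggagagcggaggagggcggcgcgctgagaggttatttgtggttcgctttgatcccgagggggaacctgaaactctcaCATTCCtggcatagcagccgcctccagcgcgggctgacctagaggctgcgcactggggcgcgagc
Ajuba: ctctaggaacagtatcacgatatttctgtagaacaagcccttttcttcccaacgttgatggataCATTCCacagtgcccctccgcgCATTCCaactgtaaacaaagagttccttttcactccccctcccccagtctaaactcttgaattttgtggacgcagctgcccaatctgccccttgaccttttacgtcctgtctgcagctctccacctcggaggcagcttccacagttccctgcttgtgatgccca
The set shows how differently the core is placed: 2 widely spaced forward copies in Ankrd1, 2 reverse copies close together in Ajuba, and a single reverse copy nearer the start in Ccn1 and Amotl2.

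Signals are log2 values, and array medians ran from 5.82 to 5.95. The lower quartile of an array lay between 3.78 and 3.91, and signals near or below it sit at the bottom of the scale, where folds are compressed. In arrays of one group the signals correlated at 0.989 to 0.998 over all probe sets that were not controls, and in arrays of different groups at 0.9345 to 0.983. On bFGF-JB6 monolayer replicate 1 and bFGF-JB6 colonies replicate 3 the Gapdh control stood higher at its 3' end than at its 5' end, by 0.19 and 0.35, against -0.08 to -0.01 on the other arrays. The mean over 10 markers of keratinocytes, the cell type of origin, was 3.86 to 4.15 per array; Cdh1 averaged 2.39 to 2.45 in the 4 groups and Krt14 3.61 to 3.80. Krt10 stood above the array medians in bFGF-JB6, with 6.81 in monolayer and 7.35 in colonies, against 5.08 and 5.24 in RT101. It and Krt1 were the 2 of these 10 markers that rose in bFGF-JB6 colonies. The mean over 8 mesenchymal markers was 9.26 to 10.39, with 9.26 to 9.33 in RT101 monolayer and 10.34 to 10.39 in RT101 colonies. The mean over 8 macrophage markers was 4.83 to 4.96 in bFGF-JB6 colonies and 4.07 to 4.53 elsewhere, and that over 7 endothelial markers 3.26 to 3.58. Of the macrophage markers Ptprc, Adgre1, Itgam and Fcgr1 had group means of 3.31 or less. Cd14 averaged 7.30 to 8.69, and Cd68 averaged 6.45 in bFGF-JB6 monolayer and 8.31 in bFGF-JB6 colonies, against 3.74 and 3.54 in RT101. Csf1r averaged 5.98 in bFGF-JB6 colonies and 4.76 to 5.06 elsewhere, and Lyz2 ran from 4.34 in bFGF-JB6 monolayer to 5.81 in RT101 colonies. From monolayer to colonies 5 of the 8 mesenchymal markers rose in each line, 1 fell in bFGF-JB6, and 3 and 2 of the 8 macrophage markers rose in bFGF-JB6 and RT101. What part these differences have in the results was not tested.

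Attached RT101 cells carried the highest signals of Ankrd1, Ajuba, Amotl2, Ccn1, Crim1 and Tead1 among the 4 groups, and all 6 were lower in RT101 colonies. Of the 10 members, these 6 fell from monolayer to colonies in RT101 and none rose at an adjusted p of 0.05 (limma, Benjamini-Hochberg over all 12393 genes), where 15.4% of all genes fell and 17.0% rose. At 2-fold or more 5 of the 10 fell, against 2.37% of all genes. All colony arrays lay below both monolayer arrays for 7 members, Lats2 and the 6 that fell, against 28.2% of all genes. For Axl and Yap1 all colony arrays lay above both monolayer arrays, by log2 changes of 0.10 and 0.12 that did not pass. The share of all genes that lay above in this way is not given here, so nothing is read from these 2 members. The members' median log2 change was -1.09, against -0.01 over all genes. In bFGF-JB6 colonies 4 members fell, Ankrd1, Crim1, Ajuba and Amotl2, and none rose, where 15.3% of all genes fell and 14.1% rose. Ankrd1 alone fell at least 2-fold there, against 1.85% of all genes, and the same 4 members had all colony arrays below all monolayer arrays, against 19.1%. The members' median was -0.15, against 0.03. At an unadjusted p of 0.05 the number that rose was also 0 in both lines. The members were chosen with earlier results of these data known. Their counts and medians beside those of all genes, here and below, are therefore no independent test of the pathway. Each array holds RNA of a whole culture or colony pool, so a fall in every cell and a smaller share of expressing cells cannot be told apart.

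**Figure D2:**
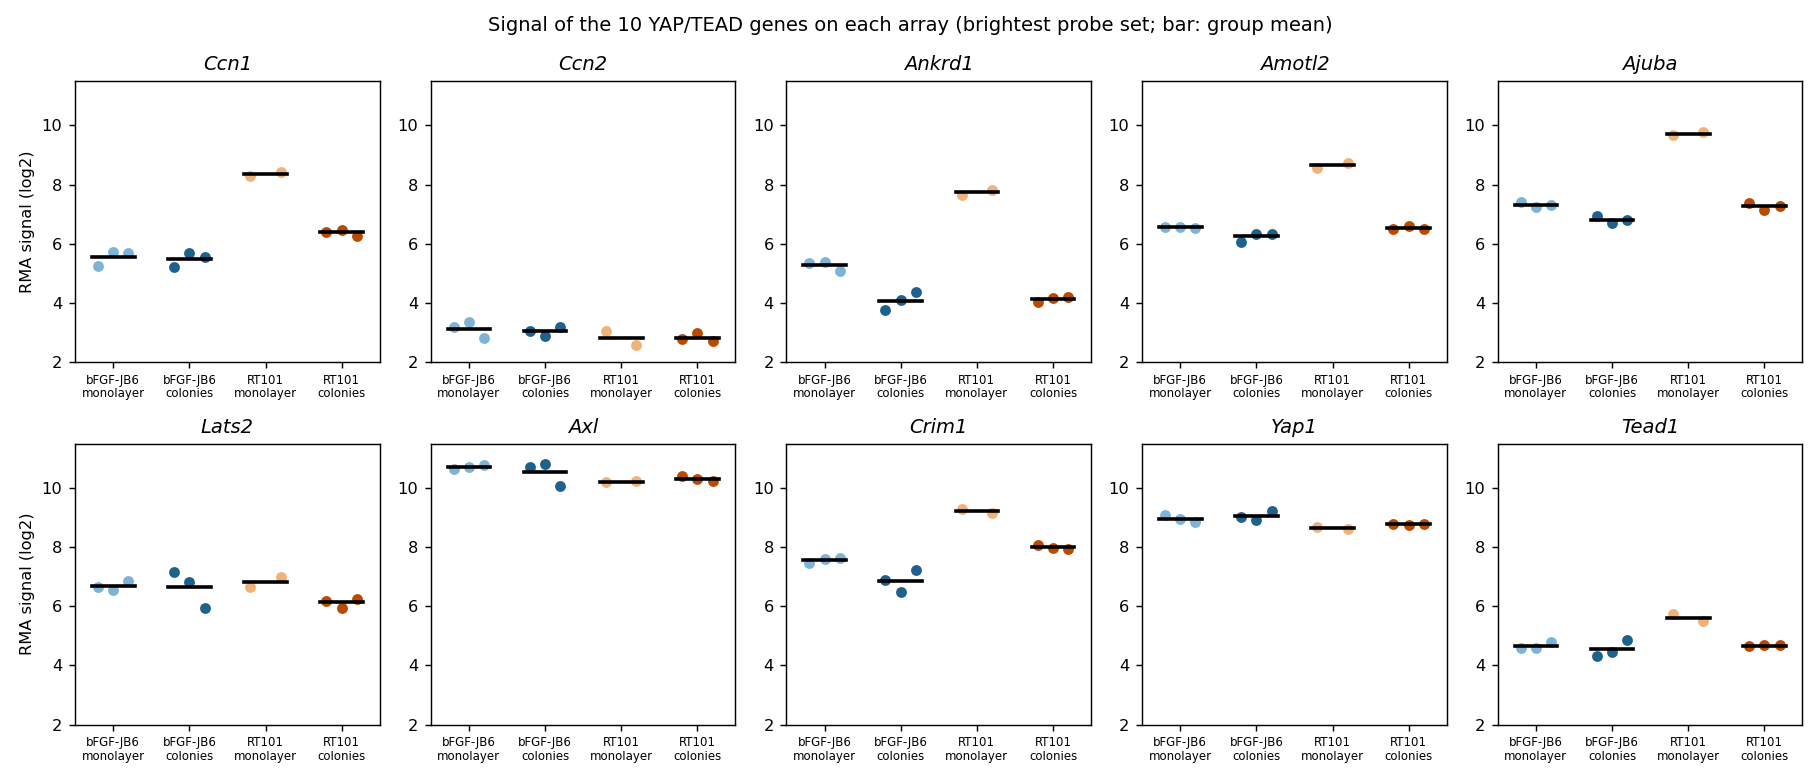
Log2 signal of the 10 members on each of the 11 arrays, 1 panel per gene, with points for arrays and bars for group means. In 5 panels (Ccn1, Ankrd1, Amotl2, Ajuba and Crim1) the 2 RT101 monolayer arrays lie above all other arrays by a wide gap, while Ccn2 stays between 2.56 and 3.36 throughout.

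Ankrd1 encodes a muscle ankyrin repeat protein and is a standard readout of YAP activity. Its log2 signal was 7.63 and 7.83 on the RT101 monolayer arrays and 4.01, 4.15 and 4.18 on those of RT101 colonies. In the bFGF-JB6 cells it was 5.35, 5.38 and 5.09 in monolayer and 3.76, 4.08 and 4.37 in colonies. Monolayer arrays were above all colony arrays in both lines, and the colonies of the lines overlapped at low signal. In RT101 colonies Ankrd1 fell 12.3-fold (log2 change -3.62, SE 0.15, limma adjusted p = 1.138e-09), the 5th largest fall among 12393 genes. In bFGF-JB6 colonies it fell 2.30-fold (log2 change -1.20, SE 0.14, adjusted p = 1.671e-05). A second Ankrd1 probe set gave -3.38 in RT101 and -0.65 in bFGF-JB6, both called. Because the colony signals are close to the bottom of the scale, both folds may be compressed.

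Ccn1 encodes a secreted matrix protein, CYR61, that binds integrins. The RT101 monolayer arrays read 8.28 and 8.42 and the RT101 colony arrays 6.40, 6.46 and 6.27. The bFGF-JB6 arrays read 5.26, 5.72 and 5.69 in monolayer and 5.21, 5.69 and 5.54 in colonies. The RT101 groups were thus separate from each other and both above every bFGF-JB6 array, while the bFGF-JB6 groups overlapped. Ccn1 fell 3.94-fold in RT101 colonies (log2 change -1.98, SE 0.15, limma adjusted p = 3.718e-07). Its change in bFGF-JB6 colonies was -0.07 (95% interval -0.37 to 0.22, adjusted p = 0.75). The other Ccn1 probe set gave -1.83 in RT101 colonies (limma adjusted p = 5.522e-06 over 22626 probe sets). In bFGF-JB6 colonies it gave -0.39 (95% interval -0.72 to -0.06, adjusted p = 0.0797), which did not pass. The mean of both Ccn1 probe sets gave a fall in bFGF-JB6 colonies, of -0.23 (adjusted p = 0.0385).

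Ccn2, which encodes the related protein CTGF, is another widely used YAP target. Its signals ran from 2.56 to 3.36 over all 11 arrays, below the lower quartile of every array. No comparison of Ccn2 passed the test, and at this level a difference would be hard to detect. The largest, RT101 against bFGF-JB6 in monolayer, was -0.32 (95% interval -0.68 to 0.04, limma adjusted p = 0.148); it passed without bFGF-JB6 monolayer replicate 3 (-0.47, adjusted p = 0.0336) and without RT101 monolayer replicate 1 (-0.55, adjusted p = 0.0406).

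Amotl2 and Ajuba moved much alike. Amotl2 encodes angiomotin-like 2, a junction protein that holds YAP in the cytoplasm. It read 8.57 and 8.73 in RT101 monolayer and 6.49, 6.58 and 6.51 in RT101 colonies, with no overlap. In bFGF-JB6 cells the readings were 6.57, 6.56 and 6.53 in monolayer and 6.07, 6.33 and 6.34 in colonies, again without overlap but close together. Amotl2 fell 4.36-fold in RT101 colonies (log2 change -2.13, SE 0.10, limma adjusted p = 3.877e-09) and 1.24-fold in bFGF-JB6 colonies (-0.31, SE 0.09, adjusted p = 0.0202). The smaller of these calls rested on single arrays: it was lost without bFGF-JB6 monolayer replicate 1 (adjusted p = 0.055), without replicate 2 of that group (0.0537), without bFGF-JB6 colonies replicate 1 (-0.22, adjusted p = 0.0821) and in a fit of those groups alone (0.058).

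Ajuba encodes a LIM-domain protein of cell junctions that binds LATS kinases and restrains them. Its log2 signal was 9.67 and 9.76 in RT101 monolayer and 7.39, 7.15 and 7.27 in RT101 colonies. The bFGF-JB6 monolayer arrays read 7.40, 7.23 and 7.29 and the colony arrays 6.95, 6.70 and 6.79. Monolayer arrays stood above colony arrays in both lines, and RT101 colonies overlapped with attached bFGF-JB6 cells. The fall was 5.45-fold in RT101 (log2 change -2.45, SE 0.11, limma adjusted p = 1.371e-09) and 1.41-fold in bFGF-JB6 (-0.50, SE 0.09, adjusted p = 0.00122).

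Crim1, which encodes a transmembrane protein that binds bone morphogenetic proteins, fell in colonies of both lines. RT101 arrays read 9.29 and 9.17 in monolayer and 8.09, 7.97 and 7.93 in colonies; bFGF-JB6 arrays read 7.48, 7.61 and 7.65 in monolayer and 6.89, 6.49 and 7.23 in colonies. The 4 groups did not overlap, with both RT101 groups above both bFGF-JB6 groups. The log2 change was -1.23 in RT101 (SE 0.16, limma adjusted p = 4.374e-05) and -0.71 in bFGF-JB6 (SE 0.14, adjusted p = 0.00194). A second, much weaker Crim1 probe set fell by 1.37 in RT101 but gave -0.16 in bFGF-JB6, which did not pass.

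Axl, a receptor tyrosine kinase of the TAM family that binds GAS6, was bright on every array. It read 10.63, 10.72 and 10.78 in bFGF-JB6 monolayer, 10.72, 10.81 and 10.06 in bFGF-JB6 colonies, 10.20 and 10.23 in RT101 monolayer and 10.40, 10.32 and 10.24 in RT101 colonies. The lowest reading came from bFGF-JB6 colonies replicate 3, an array with the raised Gapdh 3' signal. The colony change was -0.18 in bFGF-JB6 (95% interval -0.51 to 0.15, limma adjusted p = 0.431) and 0.10 in RT101 (-0.27 to 0.47, adjusted p = 0.727). A fall of more than 0.51 in bFGF-JB6 or 0.27 in RT101 lies outside these intervals. The other Axl probe set stayed near 2.3 to 2.4 in every group and carried no measurable signal.

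Lats2, the Hippo kinase whose gene is itself switched on by YAP, depended on the probe set. On the brightest one the signals were 6.65 and 6.98 in RT101 monolayer, 6.17, 5.96 and 6.26 in RT101 colonies, 6.67, 6.54 and 6.87 in bFGF-JB6 monolayer and 7.16, 6.83 and 5.96 in bFGF-JB6 colonies. The RT101 groups did not overlap, but the bFGF-JB6 colony arrays spread over more than a log2 unit, with replicate 3 lowest. The RT101 colony change was -0.69 (SE 0.26, limma adjusted p = 0.0559), just short of the threshold, and it passed under several other settings, among them a fit of the RT101 arrays alone (adjusted p = 0.00312). In bFGF-JB6 the change was -0.04 (95% interval -0.53 to 0.45).

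The next 2 Lats2 probe sets by brightness gave clear falls in RT101 colonies. Probe set 1439441_x_at read 7.35 and 7.05 in RT101 monolayer and 4.78, 5.18 and 5.22 in RT101 colonies, a log2 change of -2.14 (SE 0.22, limma adjusted p = 1.443e-05 over 22626 probe sets). Probe set 1437101_at read 6.69 and 6.71 in monolayer and 4.89, 5.29 and 4.96 in colonies, a change of -1.65 (SE 0.13, adjusted p = 1.585e-06). Replicate 3 of bFGF-JB6 colonies was the highest array of its group on the first of these (6.63, against 5.83 and 5.86) and the lowest on the second (6.02, against 6.19 and 6.16). In bFGF-JB6 cells their changes were 0.04 and -0.15, and neither passed. The mean of all Lats2 probe sets fell by 0.88 in RT101 colonies (adjusted p = 2.824e-06). The remaining 3 Lats2 probe sets had group means of 4.33 or less and gave no call in any comparison. A further probe set that names both Xpo4 and Lats2 was not used.

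**Figure D3:**
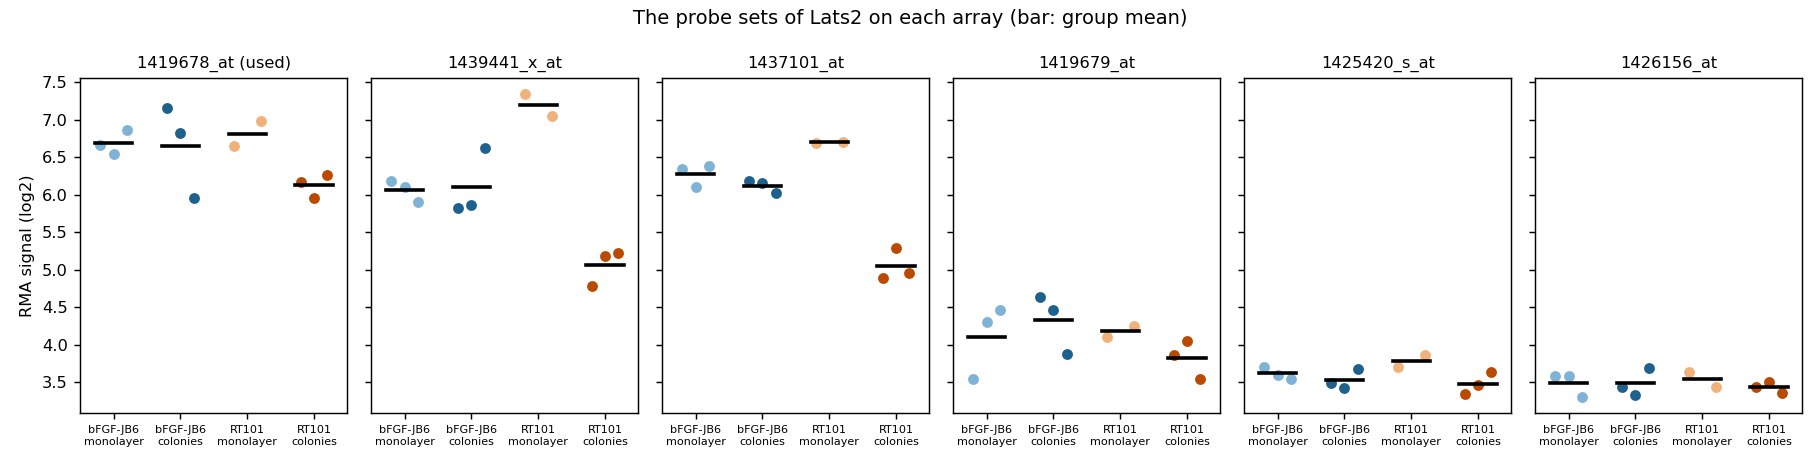
Log2 signal of the 6 Lats2 probe sets on each array, 1 panel per probe set, with points for arrays and bars for group means. In RT101 colonies the probe sets 1439441_x_at and 1437101_at drop to about 5, while 1419678_at stays near 6.

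Tead1, which encodes a TEAD factor, fell in RT101 colonies. It read 5.74 and 5.49 in RT101 monolayer and 4.65, 4.68 and 4.68 in RT101 colonies. The bFGF-JB6 arrays read 4.59, 4.59 and 4.80 in monolayer and 4.32, 4.45 and 4.85 in colonies. RT101 monolayer stood above all other arrays, and the other 3 groups overlapped. The signals of those 3 groups, from 4.32 to 4.85, were low and Tead1 has 1 probe set, so its folds may be compressed. The RT101 change was -0.94 (SE 0.14, limma adjusted p = 0.000139); the bFGF-JB6 change was -0.12 (95% interval -0.39 to 0.15).

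Yap1 messenger RNA changed little between growth states. It read 9.08, 8.94 and 8.85 in bFGF-JB6 monolayer, 9.02, 8.92 and 9.22 in bFGF-JB6 colonies, 8.70 and 8.60 in RT101 monolayer and 8.78, 8.74 and 8.80 in RT101 colonies. Every RT101 array was below every bFGF-JB6 array, by a small margin. The colony change was 0.10 in bFGF-JB6 (95% interval -0.11 to 0.30, limma adjusted p = 0.506) and 0.12 in RT101 (-0.11 to 0.35, adjusted p = 0.443). A change of more than 0.35 in either line lies outside these intervals. The other Yap1 probe set gave no call in any comparison.

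**Figure D4:**
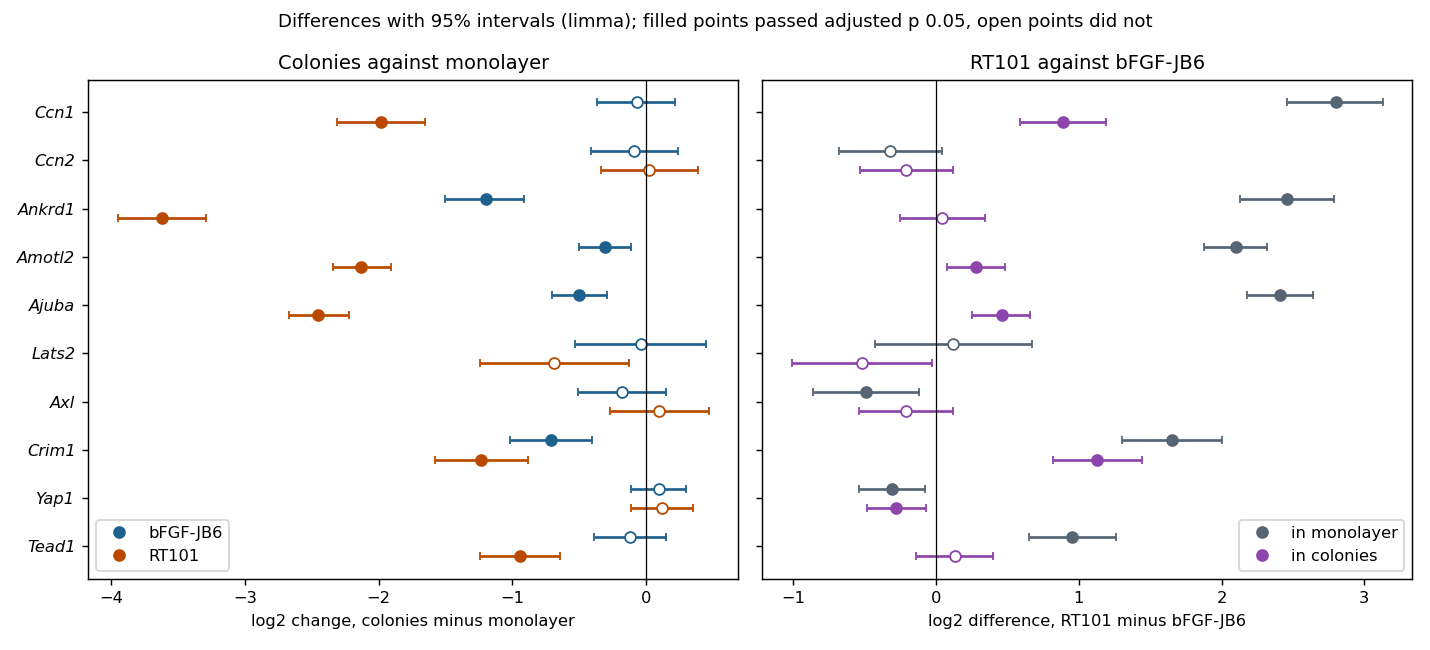
Log2 differences of the 10 members with 95% intervals from limma: colonies minus monolayer in each line on the left, RT101 minus bFGF-JB6 in each growth state on the right, filled where the adjusted p was below 0.05. On the left Ankrd1 lies at -1.20 and -3.62 and the Ccn2, Axl and Yap1 intervals include 0 in both lines; on the right 6 members lie well above 0 in monolayer and closer to it in colonies.

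The colony changes of the lines were then compared directly, as the RT101 change minus the bFGF-JB6 change. For 5 members the RT101 fall was the larger, where 12.7% of all genes had a difference below 0 and 15.0% one above 0 that passed. At 2-fold or more it was 4, against 3.11% of all genes. The difference was -2.42 for Ankrd1 (SE 0.21, limma adjusted p = 1.161e-06), -1.95 for Ajuba (SE 0.14, adjusted p = 2.805e-07), -1.90 for Ccn1 (SE 0.21, adjusted p = 1.163e-05), -1.82 for Amotl2 (SE 0.14, adjusted p = 3.775e-07) and -0.82 for Tead1 (SE 0.19, adjusted p = 0.00477). Crim1 gave -0.52 (95% interval -0.99 to -0.06, adjusted p = 0.0927), which passed without bFGF-JB6 colonies replicate 2 (-0.71, adjusted p = 0.00573) and as a mean of its probe sets (-0.87). Lats2 gave -0.64 on its brightest probe set (adjusted p = 0.197), and -0.99 without bFGF-JB6 colonies replicate 3 (adjusted p = 0.00232). Its next 2 probe sets passed with all arrays, 1439441_x_at with -2.18 (adjusted p = 0.000195 over 22626 probe sets) and 1437101_at with -1.50 (adjusted p = 5.328e-05). The members' median difference was -0.73, against -0.04 over all genes. Ankrd1 lay close to the bottom of the scale in colonies of both lines, so its difference may be affected.

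The same arrays also give the comparison of the lines in each growth state. In monolayer RT101 was higher for 6 members and lower for 2, where 23.2% of all genes were higher and 21.2% lower. At 2-fold or more 5 were higher, against 5.33% of all genes. Ccn1 was 6.95-fold higher in RT101 (log2 difference 2.80, limma adjusted p = 5.583e-09), Ankrd1 5.50-fold (2.46, adjusted p = 1.812e-08), Ajuba 5.31-fold (2.41, adjusted p = 5.422e-10), Amotl2 4.28-fold (2.10, adjusted p = 1.377e-09) and Crim1 3.14-fold (1.65, adjusted p = 1.411e-06). Tead1 was higher by 0.95 (adjusted p = 6.738e-05). These genes share the 2 RT101 monolayer arrays with the colony comparison in RT101, so both sets of values rise or fall with those arrays. Without either of them all 6 still passed in both comparisons.

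The 2 lower members in monolayer were Axl (-0.49, limma adjusted p = 0.0305) and Yap1 (-0.31, adjusted p = 0.0318), and neither call was firm. Axl lost it without RT101 monolayer replicate 1 (adjusted p = 0.124) or replicate 2 (0.0986), and without bFGF-JB6 monolayer replicate 2 (0.0619) or replicate 3 (0.082). Yap1 lost it without RT101 monolayer replicate 1 (0.0623) or replicate 2 (0.176), without bFGF-JB6 monolayer replicate 1 (0.106) or replicate 2 (0.0568), and as a mean of both probe sets (-0.13, adjusted p = 0.3). Lats2 did not pass on its brightest probe set (0.12, adjusted p = 0.747), while 1439441_x_at (1.14, adjusted p = 0.00111 over 22626 probe sets) and 1437101_at (0.43, adjusted p = 0.0192) were higher in RT101.

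In colonies the gap between the lines was narrower. RT101 was higher for 4 members and lower for 1, where 22.7% of all genes were higher and 20.7% lower. On the brightest probe sets Crim1 alone differed at least 2-fold, by 1.13 (limma adjusted p = 1.909e-05), where 5.08% of all genes were higher by that much. Ccn1 followed with 0.89 (adjusted p = 0.000109) and Ajuba with 0.46 (adjusted p = 0.00116). The other Crim1 probe set gave 0.51 (adjusted p = 0.00174 over 22626 probe sets). The other Ccn1 probe set gave 1.19 (adjusted p = 3.676e-05), so which of these genes reached 2-fold depended on the probe set. Ankrd1 differed by 0.04 (95% interval -0.25 to 0.34). The median over members was 0.09, against 1.30 in monolayer; over all genes it was 0.00 and 0.05.

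Several of the smaller differences in colonies turned on 1 array. Amotl2 was higher by 0.28 (limma adjusted p = 0.0226), a call lost without bFGF-JB6 colonies replicate 1 (0.103) or RT101 colonies replicate 2 (0.0863) or 3 (0.0527). Yap1 was lower by 0.28 in RT101 (adjusted p = 0.0297), a call lost without bFGF-JB6 colonies replicate 3 (adjusted p = 0.103) or any 1 of the RT101 colony arrays (0.0601 to 0.0915). Without bFGF-JB6 colonies replicate 3, which carried the raised Gapdh 3' signal, Lats2 (-0.87, adjusted p = 0.000227), Axl (-0.44, adjusted p = 0.000818) and Tead1 (0.29, adjusted p = 0.0341) passed; with it they were -0.52, -0.21 and 0.13 and did not. The Lats2 values are those of its brightest probe set; 1439441_x_at (-1.04, adjusted p = 0.000981 over 22626 probe sets) and 1437101_at (-1.08, adjusted p = 9.771e-06) passed with all arrays.

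The order of the groups differed between members. RT101 monolayer was highest, and apart from every other group, for Ccn1, Ankrd1, Amotl2, Ajuba, Crim1 and Tead1. Next came RT101 colonies for Ccn1, Crim1 and Tead1, and bFGF-JB6 monolayer for Ankrd1, Amotl2 and Ajuba. For Amotl2 and Ajuba the bFGF-JB6 monolayer and RT101 colony arrays overlapped, and bFGF-JB6 colonies were lowest. On its brighter probe set Yap1 ran the other way, with both bFGF-JB6 groups, which overlapped, above RT101 colonies and RT101 monolayer lowest. The group means spanned only 0.4 there. The other Yap1 probe set did not give this order, and bFGF-JB6 monolayer was lowest on it, with a mean of 7.04.

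Other genes of the pathway moved in both directions. The shares over all genes to set beside the counts of each list are those already given, 14.1% up and 15.3% down in bFGF-JB6 colonies and 17.0% up and 15.4% down in RT101 colonies. Of 17 listed Hippo kinases and scaffolds, 14 were measured; 5 fell and 1 rose in bFGF-JB6 colonies, and 3 fell and 1 rose in RT101 colonies, with medians of -0.15 and -0.20. Rassf1, a scaffold that binds the MST kinases, fell by 1.06 in RT101 (SE 0.09, limma adjusted p = 5.501e-07), from a mean of 9.42 to 8.36. Sav1, the adaptor of those kinases, rose by 0.81 there (SE 0.08, adjusted p = 3.758e-06). In bFGF-JB6 the largest fall was that of Frmd6, -0.63 (SE 0.10, adjusted p = 0.000424). Of 11 listed junction and LIM-domain regulators 5 were measured, with 1 fall in bFGF-JB6 and 2 falls and 1 rise in RT101.

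Amot and Wwtr1 rose in RT101 colonies, where 6 of the 10 members fell. Amot, which encodes angiomotin, the founding relative of AMOTL2, averaged 7.20 in RT101 monolayer and 9.23 in RT101 colonies, a rise of 2.03 (SE 0.12, limma adjusted p = 2.320e-08); it averaged 8.59 and 8.31 in bFGF-JB6 monolayer and colonies. Of its other 2 probe sets 1 gave the same call. Wwtr1 encodes TAZ, the close relative of YAP, and averaged 9.32 in RT101 monolayer against 10.53 to 10.62 in the other groups. It rose by 1.30 in RT101 colonies (SE 0.09, adjusted p = 1.596e-07), and its colony change differed between the lines by 1.31 (adjusted p = 3.196e-06).

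Of 5 listed genes for other TEAD factors or proteins that bind them, 4 were measured: Wwtr1, Tead2, Tead3 and Tead4. Of these 2 rose and 1 fell in bFGF-JB6 colonies, and 3 rose and 1 fell in RT101 colonies. Tead4 was the one that fell, from 7.24 to 6.23 in bFGF-JB6 (-1.01, SE 0.17, limma adjusted p = 0.000409) and from 5.89 to 4.67 in RT101 (-1.22, SE 0.19, adjusted p = 0.000173). Its other probe set gave the same calls. Tead3 and Tead2 rose in bFGF-JB6 by 0.62 and 0.58. In RT101 colonies their rises were small, 0.41 for Tead2 (adjusted p = 0.0346) and 0.30 for Tead3 (adjusted p = 0.0436). Both calls were lost without RT101 monolayer replicate 1 (adjusted p = 0.159 and 0.157) or replicate 2 (0.105 and 0.142) and without RT101 colonies replicate 1 (0.105 and 0.111) or replicate 2 (0.0928 and 0.0741), and that of Tead3 also without RT101 colonies replicate 3 (0.0943).

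A list of further genes reported as YAP targets held both rises and falls. Of 15 listed, 12 were measured; 7 rose and 2 fell in bFGF-JB6 colonies, where 14.1% of all genes rose and 15.3% fell, and 3 rose and 4 fell in RT101 colonies, with medians of 0.42 and -0.15. Whether the list differs from the members was not tested. F3, the tissue factor that starts clotting, averaged 4.60 in bFGF-JB6 monolayer, 7.41 in bFGF-JB6 colonies, 8.02 in RT101 monolayer and 7.58 in RT101 colonies. It rose by 2.81 in bFGF-JB6 colonies (SE 0.09, limma adjusted p = 6.970e-11) and was 3.42 higher in RT101 monolayer than in bFGF-JB6 monolayer. Gadd45a, a growth arrest and DNA damage gene, rose by 1.87 in bFGF-JB6 colonies (SE 0.08, adjusted p = 2.092e-09) and fell by 1.51 in RT101 colonies (SE 0.09, adjusted p = 4.216e-08).

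Ccdc80, a secreted matrix protein gene, averaged 5.71 in bFGF-JB6 monolayer and 8.32 in colonies, a rise of 2.62 (SE 0.12, limma adjusted p = 3.749e-09), and its other probe set rose as well. In RT101 it averaged 4.32 and 4.87. Foxf2, a forkhead factor gene, rose in both lines, by 1.25 in bFGF-JB6 (SE 0.11, adjusted p = 1.414e-06) and 0.96 in RT101 (SE 0.12, adjusted p = 3.414e-05). Myof, the myoferlin gene, fell in both, by 0.87 and 0.89, but a second Myof probe set gave -0.02 and -0.13, which did not pass.

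The relatives of Ccn1 and Ccn2 and the other genes of TAM ligands and receptors were read in the same way. All 3 measured CCN relatives, of 4 listed, rose in bFGF-JB6 colonies, Ccn4 (WISP1) by 1.28 (SE 0.10, limma adjusted p = 5.768e-07), Ccn3 (NOV) by 0.82 and Ccn5 by 0.63. In RT101 colonies Ccn4 fell by 0.89 (SE 0.11, adjusted p = 3.414e-05) and Ccn3 rose by 0.83 (SE 0.18, adjusted p = 0.00235). Ccn4 had the higher signal in RT101 monolayer (8.34, against 6.40 in bFGF-JB6 monolayer), as Ccn1 did. Of the 4 other TAM ligand and receptor genes 0 passed in bFGF-JB6 colonies by limma (1 at an unadjusted p of 0.05, Pros1). In RT101 colonies 1 passed: Pros1, which encodes the TAM ligand protein S, rose by 1.05 (SE 0.10, adjusted p = 2.394e-06). Gas6, the ligand gene named above for Axl, averaged 3.87 to 4.04 in the 4 groups, near the bottom of the scale. It did not pass in either line.

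**Figure D5:**
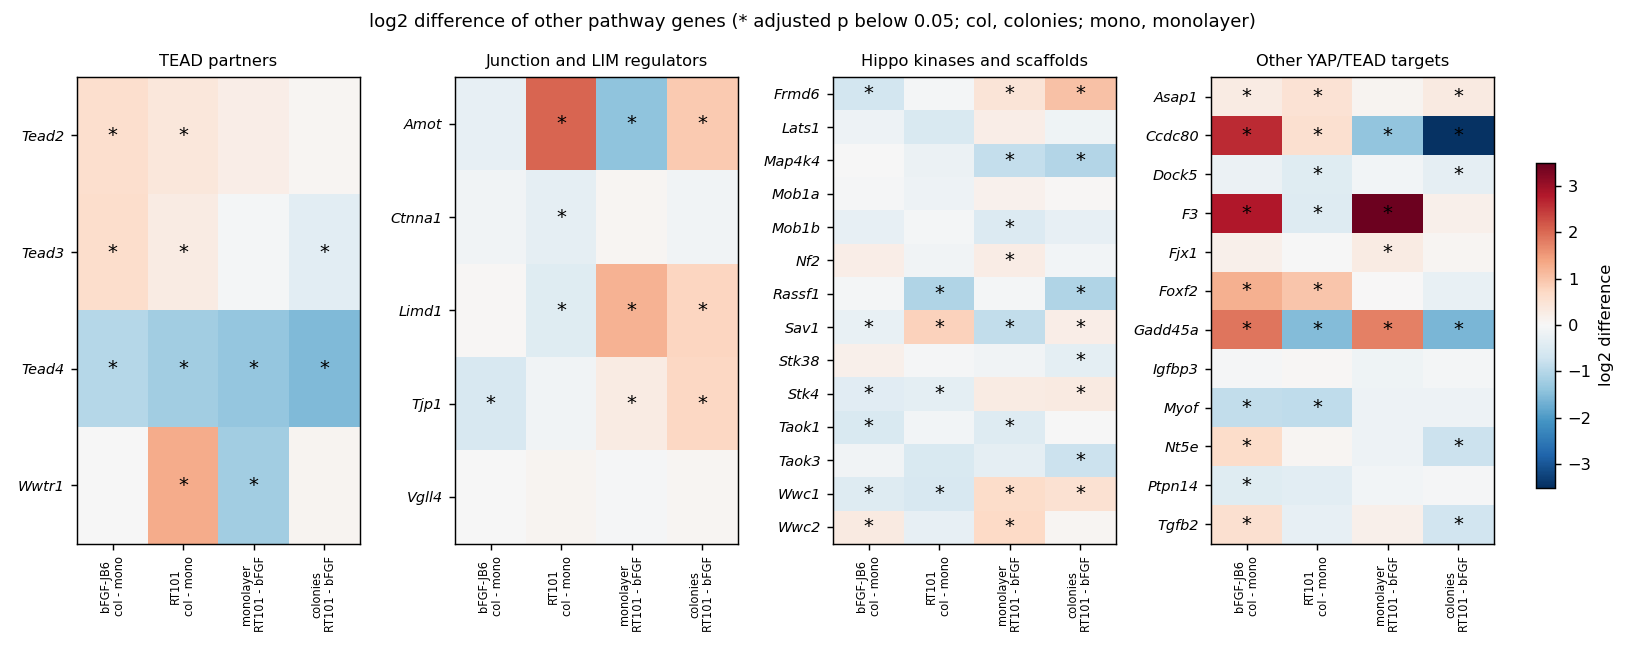
Heat maps of log2 differences for the measured genes of 4 pathway lists, 1 row per gene and 1 column per comparison (colonies minus monolayer in each line, RT101 minus bFGF-JB6 in each growth state), red for higher and blue for lower, with stars at an adjusted p below 0.05. Amot (2.03) and Wwtr1 (1.30) are the reddest in the RT101 column of their lists, and F3 (2.81) and Ccdc80 (2.62) in the bFGF-JB6 column of theirs.

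Genes of the actin cytoskeleton and of serum response factor, which also respond to cell spreading, were counted in the same way. Of 16 listed and measured, 3 rose and 4 fell in bFGF-JB6 colonies and 3 rose and 4 fell in RT101 colonies, with medians of -0.06 and -0.03; over all genes 14.1% rose and 15.3% fell, and 17.0% rose and 15.4% fell. Myl9, a myosin light chain gene, rose 2-fold in bFGF-JB6 (log2 change 1.0, SE 0.13, limma adjusted p = 5.596e-05). Its mean in bFGF-JB6 monolayer was 3.91, near the bottom of the scale, so the fold may be compressed. Tpm1, a tropomyosin gene, rose by 0.64 in RT101 (SE 0.17, adjusted p = 0.0112), a call lost without RT101 monolayer replicate 1 (0.52). Of its other 2 probe sets 1 gave the same call, and their changes were -0.16 and 0.54. Flna, which cross-links actin, fell by 1.06 in RT101 (SE 0.15, adjusted p = 9.299e-05), and Fhl2, a LIM-domain coactivator gene, fell by 0.82 in RT101 and by 0.53 in bFGF-JB6.

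Pearson's correlation of log2 signal over the 11 arrays was used to name the genes whose pattern was most like each member's, among 2861 genes whose group means spanned at least 1 on the log2 scale. The arrays fall into 4 groups, so these values mostly describe the order of 4 group means. Ccn1 was most like Dach2 (r = 0.990), Ptgs2 (0.988) and Psat1 (0.987). Ankrd1 was most like Gtpbp4 (0.987), Hbs1l (0.985) and Tnpo1 (0.982). Amotl2 was nearest to Prodh (0.994), Psph (0.989) and Tcea1 (0.989), and Ajuba to Nop58 (0.992), Slc1a5 (0.991) and Socs2 (0.990).

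The nearest genes of Crim1 were Top2b (0.990), Slc38a1 (0.989) and Mrpl1 (0.989), and those of Tead1 were Sirt1 (0.972), Rb1 (0.968) and Mterf3 (0.968). Likeness was lower for the members that varied little. Axl reached 0.948 with Adar, Yap1 0.940 with Slc39a8, Lats2 0.814 with Has2 and Ccn2 0.758 with Lce1i. Dach2, the gene nearest to Ccn1, averaged 8.34 in RT101 monolayer, 4.89 in RT101 colonies and 2.95 and 2.77 in bFGF-JB6 monolayer and colonies. RT101 monolayer was thus highest and RT101 colonies next, as for Ccn1. The order of the bFGF-JB6 groups cannot be compared. The Dach2 means there lay below the lower quartile of every array, and the Ccn1 arrays of those groups overlapped.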

How the data were processed

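Total RNA of each of the 11 samples was labelled with biotin and hybridised to an Affymetrix array. The values deposited by the authors are log2 signals, 1 per probe set and array, from RMA (per the submitters' processing notes); the version and settings are not given in the sources used here. RMA makes the arrays' distributions alike and compresses folds of weak signals, and it gives no detection call. There are no counts behind the values, so the number of arrays limits the precision. The signals were used as deposited.

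A gene was read from the brightest of its probe sets that name no other gene in the platform annotation, which left 12393 genes. One model with group as its only term was fitted to all 11 arrays with limma 3.58.1 in R 4.3.3 (7 residual and 6.12 prior degrees of freedom), and p-values were adjusted over all genes by Benjamini-Hochberg at 0.05. SE and intervals are moderated. Nothing in the labels says that a group's arrays come from separate cultures; p-values therefore rest on a spread between samples that may be technical. Whether replicate numbers in the titles or letters in the descriptions pair the arrays was not settled. Deviations of arrays sharing a number correlated at -0.336 to 0.32, with 5 of 15 pairs over 0.1. Those sharing a letter correlated at -0.276 to 0.32, with 8 of 15. No such range was taken for arrays sharing neither label, so these values cannot exclude pairing.

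The 10 members and the lists were chosen with earlier results of these data known. All members and all their probe sets were named. Of each pathway list up to 4 called genes with the largest change in a comparison could be named, and for each member the 3 most like it. The fit was tested on simulated data. Alternatives were 2 replicate blocks, array weights, a trended robust variance, cyclic loess, median centring, a filter on level, a 2-fold minimum, separate tests of every probe set, averaging over probe sets, fits of only the groups compared, and leaving out each array or both arrays whose Gapdh 3' signal was raised. Promoters came from RefSeq (GRCm38.p6). Figures used Python 3.11.15 with matplotlib 3.10.9.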

Additional observations from a re-analysis of the deposited data

Results flagged for a closer look

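For 5 of the 10 members the colony change differed between the lines by a test of the difference itself (RT101 change minus bFGF-JB6 change, limma, adjusted over 12393 genes). The log2 difference was -2.42 for Ankrd1, whose colony change was -1.20 in bFGF-JB6 and -3.62 in RT101. Its colony means, 4.07 in bFGF-JB6 and 4.11 in RT101, were close to the bottom of the scale, where folds are compressed. What part this has in the difference was not tested. Ajuba gave -1.95, from -0.50 and -2.45. Ccn1 gave -1.90, from -0.07 and -1.98, and Amotl2 -1.82, from -0.31 and -2.13. Tead1 gave -0.82, from -0.12 and -0.94, with low signals outside RT101 monolayer. In RT101 the colony arrays of these 5 genes were all below both monolayer arrays. A difference of this kind is the same number as RT101 minus bFGF-JB6 in colonies less that in monolayer, and all 5 genes were higher in RT101 monolayer than in bFGF-JB6 monolayer, by 0.95 for Tead1 to 2.80 for Ccn1.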

How the results depend on the processing

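Over the members no result changed direction with a call under any alternative. Of 900 values of single members under alternatives, 835 stayed on their side of the threshold, 39 (of 12 results) fell short of it and 26 (of 9) came to pass. Leaving out 1 array gave 3 to 4 members called in bFGF-JB6 colonies, 6 in RT101 colonies throughout, 5 to 6 for the difference between the lines, 6 to 8 in monolayer and 3 to 7 in colonies of the lines; the 3 came without RT101 colonies replicate 2 or 3. Without 1 RT101 monolayer array the other is assumed to vary like the other groups. With a 2-fold minimum 1, 5 and 1 members were called in bFGF-JB6 colonies, between the monolayers and between the colonies. A filter at the median level left 6 members, of which 2 were called for the difference between the lines and 5 between the monolayers. With a replicate block from the titles the members called were 4, 6, 5, 7 and 5 in these 5 comparisons, and with one from the letters 4, 7, 5, 6 and 5; over all genes 3550 were called in bFGF-JB6 colonies with the title block and 3642 without. Of 11 arrays 4 correlated best with an array of their own number and 5 with one of their own letter. A fit of only the groups compared was not run for the difference, where it is the same fit.

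The limits are few arrays (2 of RT101 monolayer, which enter 3 of the 5 comparisons) and messenger RNA standing in for a pathway controlled at the protein level. Further limits are signals near the bottom of the scale for Ccn2 and for Ankrd1 in colonies, and low signals for Tead1 outside RT101 monolayer.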
